A study of Mus musculus with 6 samples.

Results

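The genes described here encode IL-6 and IL-1 family cytokines and their receptors, the kinases and transcription factors that carry those signals, and proteins of the acute phase other than serum amyloid A and the orosomucoids. They were followed in the liver of mice that lack arylsulfatase B (ARSB), the lysosomal enzyme that removes sulfate from chondroitin 4-sulfate and dermatan sulfate. The list held 37 genes. A gene was measured where a probe set of the array was annotated with that symbol and no other, and the probe set with the highest mean over all arrays stood for the gene. By that rule 33 of the 37 genes were measured, of 19938 named genes and 35556 probe sets in all. Serpina3k, Serpina3m, Il1r1 and Nfkb1 were not analysed here, since no probe set was listed with their symbol alone.

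The acute phase response is the change in plasma proteins that follows infection or injury. IL-1 and TNF, released largely by macrophages, act through NF-kB and induce IL-6. IL-6 binds its receptor and the shared subunit gp130 on hepatocytes, activates JAK kinases and STAT3, and, together with NF-kB and C/EBP factors, raises transcription of secreted proteins such as haptoglobin and of metallothioneins. SOCS3 and IkB proteins are induced by the same signals and limit them.

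Arrays were hybridized with RNA from 3 ARSB-null and 3 control livers, 1 array per mouse, numbered 4, 5 and 6 in each group. The ARSB-null mice were homozygous males of 12 weeks on the C57BL/6J background, from a colony founded with heterozygous animals, and the controls were C57BL/6J males of 12 weeks. No mouse was treated, and all were killed by cervical dislocation, after ketamine and xylazine by the labels or after carbon dioxide by the methods of the paper. Whether the controls were littermates is not given in the sources used here, so the loss of ARSB and differences between colonies cannot be told apart. Values are log2 signals, on which a difference of 1 is a doubling, and are listed in the order of mice 4, 5 and 6.

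Arsb itself measured 7.57 ± 0.10 in ARSB-null liver and 10.21 ± 0.01 in control liver (mean ± SD of log2 signal, brighter of its probe sets), and passed the test (adjusted p = 0.000639, limma). The tissue carried hepatocyte markers at high signal, with means over 12 markers of 13.17 to 13.24 on the ARSB-null arrays and 13.07 to 13.20 on the control arrays. Of all 35556 probe sets, 0.0197% passed an adjusted p under 0.05, with 0.00562% of all probe sets higher and 0.0141% lower. As shares of named genes these were 0.0251%, 0.01% and 0.015%.

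No measured gene of the list passed the test, in either direction (0 of 33 higher, 0 of 33 lower, adjusted p 0.563 to 0.998, limma). Il1b and 9 of 10 secreted acute phase proteins had lower means in ARSB-null liver, by little for some of them, whereas Stat3 and the NF-kB inhibitor Nfkbia had higher means. Mt1 and Mt2 varied over 4-fold between mice without following genotype. At an unadjusted p under 0.05, 1 gene was higher (Nfkbia) and 5 were lower (Il1b, Il6, Hp, Fgl1 and Itih3). The background was 2.75% higher and 3.19% lower over all probe sets (5.94% together) and 2% higher and 3.8% lower over named genes (5.8% together). With the mouse number as a block in the fit, 0 were higher and 4 were lower (Il1b, Il6, Hp and Apcs).

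The 3 ARSB-null values lay wholly above the 3 control values for 2 genes (Stat3 and Nfkbia). They lay wholly below them for 6 (Il1b, Il6, Hp, Hpx, Itih3 and Jak1), and overlapped for the other 25. For Jak1 the groups all but met, with the highest ARSB-null value at 10.8903 and the lowest control value at 10.8911. Over all probe sets, 5.14% were without overlap and higher and 6.78% without overlap and lower (11.9% together), and over named genes 4.73% and 8.32% (13% together). The mean was lower in ARSB-null liver for 18 of 33 genes, beside 54.8% of named genes and 49.6% of probe sets. The median log2 difference was -0.04 over the list and -0.02 over named genes. The largest differences were those of Il1b and Fgl1, and the other 31 means lay within 1.5-fold of control. The 95% interval of the difference stayed within 1.5-fold of no change for 25 of the 33 genes, beside 85.8% of named genes and 73.4% of probe sets. It stayed within 2-fold for 29 of the 33, beside 19676 of 19938 named genes and 32893 of 35556 probe sets. The exact permutation test over 3 against 3 arrays cannot go below p = 0.1.

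**Figure D1:**
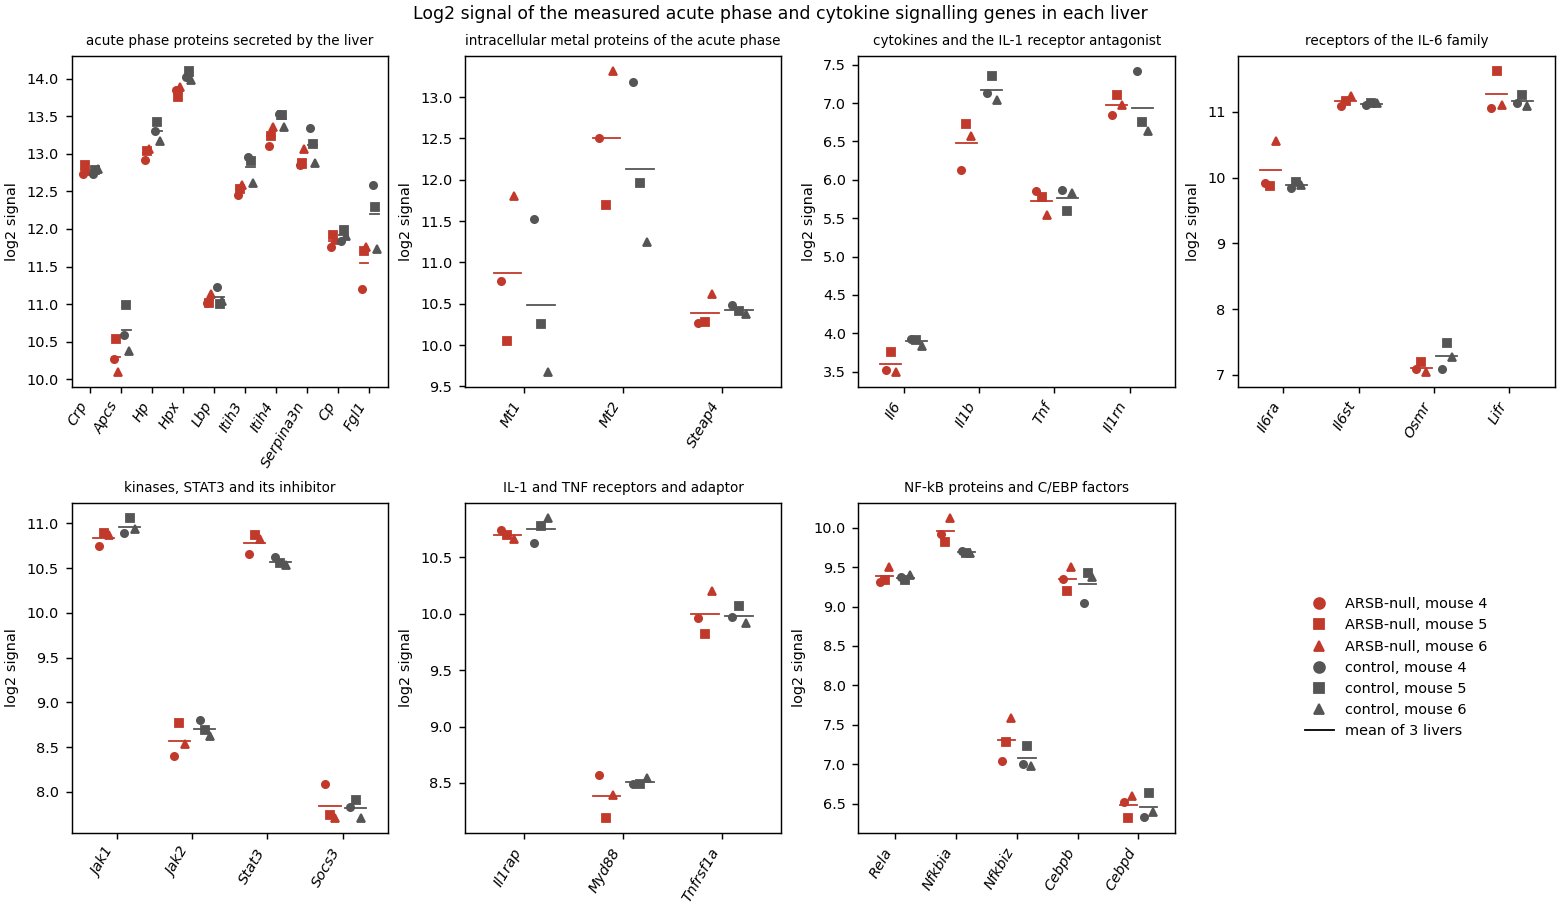
Log2 signal (vertical axes) of the 33 measured genes in each liver, in 7 panels by role. Red marks are ARSB-null and grey marks control livers, the shape gives the mouse number and bars are means of 3. Mt1 and Mt2 spread widely in both groups, and the Il1b groups do not overlap.

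**Figure D2:**
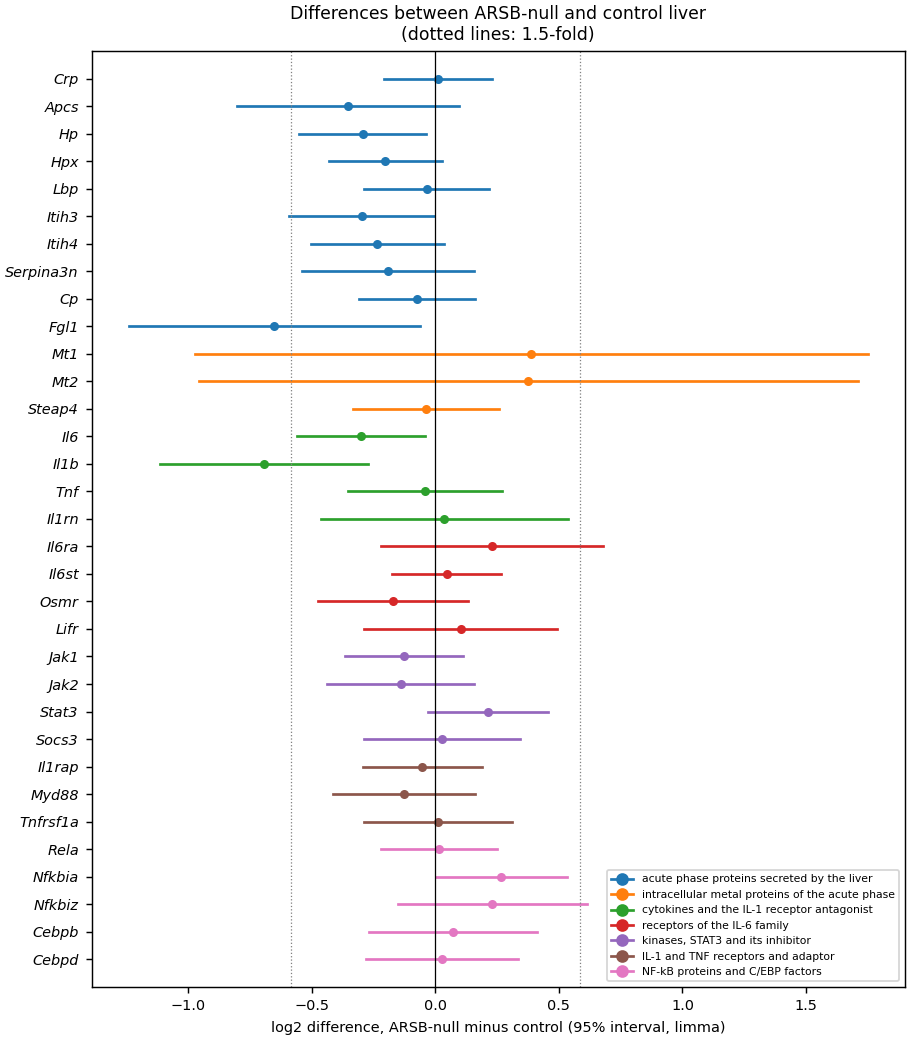
Log2 difference of ARSB-null minus control liver for each measured gene (points) with its 95% interval from limma (lines), coloured by role, with dotted lines at 1.5-fold. The intervals of 25 genes lie between the dotted lines, and those of Mt1 and Mt2 are the widest.

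The cytokines come first in the cascade. Il1b encodes IL-1 beta, made mainly by macrophages and neutrophils. It measured 6.13, 6.73 and 6.57 in ARSB-null livers, against 7.13, 7.35 and 7.03 in control livers. Every ARSB-null value was below every control value. The mean was 1.62-fold lower (log2 difference -0.69, SE 0.18, 95% interval of the fold 1.21 to 2.17), with an unadjusted p of 0.0061 and an adjusted p of 0.563 (limma). Il1b had the lowest unadjusted p of the list, which stayed under 0.05 in all 16 alternative settings, while the adjusted p ranged over 0.214 to 0.994. In bulk liver, fewer cells of a type and less RNA per cell cannot be told apart.

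Markers of cells that make IL-1 beta differed in both directions, with more means lower than higher in ARSB-null liver. Over named genes the mean was lower for 54.8%, and 2% were higher and 3.8% lower at an unadjusted p under 0.05 (limma). Of 13 Kupffer cell and macrophage markers, the mean was lower for 9 and higher for 4, and 0 passed the test. At an unadjusted p under 0.05, 2 were higher, Cd68 and C1qa (log2 differences 0.53 and 0.39). By the same measure 3 were lower, Cd163, Adgre1 and Csf1r (-0.77, -0.35 and -0.33). The mean log2 signal over the list was 9.17 to 9.28 on ARSB-null arrays and 9.08 to 9.42 on control arrays. Of 11 measured neutrophil and monocyte markers, the mean was lower for 10 and higher for 1, and 0 passed the test. At an unadjusted p under 0.05, 3 were lower (Ngp, Mmp8 and Ltf, log2 differences -0.50, -0.54 and -0.31). That list averaged 5.52 to 5.57 on ARSB-null arrays and 5.64 to 5.84 on control arrays, without overlap. These signals lie below the array medians of 6.50 to 6.60, and the values cannot tell an absent transcript from a low one. The part of either cell type in the Il1b difference was not tested.

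Il6, the cytokine that drives the hepatic acute phase, had one of the lowest signals on the arrays. It measured 3.53, 3.76 and 3.50 in ARSB-null livers and 3.93, 3.92 and 3.84 in control livers. The groups did not overlap (log2 difference -0.30, SE 0.11, unadjusted p = 0.0292, adjusted p = 0.786, limma). Its mean level exceeded that of only 2.43% of named genes, and whether a signal this low lay above background was not tested. Tnf measured 5.86, 5.77 and 5.54 in ARSB-null livers and 5.87, 5.60 and 5.83 in control livers, with overlapping groups (log2 difference -0.04, adjusted p = 0.994, limma). Il1rn, which encodes the secreted antagonist of the IL-1 receptor, differed by 0.04 and varied most among controls, where the highest value was 7.42 and the lowest 6.64.

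The receptors of the IL-6 family differed little. Il6ra, the IL-6 binding subunit, measured 9.91, 9.88 and 10.56 in ARSB-null livers and 9.84, 9.93 and 9.88 in control livers. ARSB-null mouse 6 stood above the other 5 livers, which lay close together (log2 difference 0.23, 95% interval -0.22 to 0.68, adjusted p = 0.977, limma). Il6st, which encodes gp130, measured 11.09, 11.17 and 11.24 in ARSB-null livers and 11.10, 11.13 and 11.13 in control livers. Its interval of -0.18 to 0.27 around a difference of 0.05 was among the narrowest. Osmr, the oncostatin M receptor subunit, measured 7.08, 7.20 and 7.05 in ARSB-null livers and 7.09, 7.49 and 7.26 in control livers (log2 difference -0.17, adjusted p = 0.972, limma). Lifr, the receptor subunit for leukaemia inhibitory factor, differed by 0.10, with ARSB-null mouse 5 highest at 11.62.

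Downstream of gp130, Stat3 measured 10.66, 10.87 and 10.82 in ARSB-null livers and 10.62, 10.56 and 10.54 in control livers. The groups did not overlap, although ARSB-null mouse 4 was near the highest control (1.16-fold, log2 difference 0.21, SE 0.10, unadjusted p = 0.0752, adjusted p = 0.875, limma). The kinases Jak1 and Jak2 had lower means, by log2 differences of -0.13 and -0.14. Socs3, the feedback inhibitor that STAT3 induces, measured 8.08, 7.74 and 7.71 in ARSB-null livers and 7.83, 7.91 and 7.71 in control livers. These overlapped (log2 difference 0.03, 95% interval -0.29 to 0.34), and a dimmer probe set of Socs3 differed by 0.11 (adjusted p = 0.989, limma). Stat3 transcript and STAT3 phosphorylation are different quantities, and only the transcript was measured.

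On the IL-1 and TNF side, the IL-1 coreceptor Il1rap, the adaptor Myd88 and the TNF receptor Tnfrsf1a differed by -0.05, -0.13 and 0.01 on the log2 scale, all with overlapping groups. Nfkbia encodes IkB alpha, which holds NF-kB in the cytoplasm and is itself an NF-kB target. It measured 9.92, 9.82 and 10.13 in ARSB-null livers, against 9.71, 9.68 and 9.68 in control livers. All 3 ARSB-null values were above the controls, whose spread was narrow (1.20-fold, log2 difference 0.27, SE 0.11, unadjusted p = 0.0481, adjusted p = 0.838, limma). Without ARSB-null mouse 6 the log2 difference was 0.18, with an unadjusted limma p of 0.158. Nfkbiz, a nuclear IkB protein that assists NF-kB at secondary response genes, measured 7.04, 7.28 and 7.59 in ARSB-null livers and 7.01, 7.24 and 6.98 in control livers (log2 difference 0.23, adjusted p = 0.966, limma). Mouse 6 was the highest ARSB-null liver for both IkB genes. The NF-kB subunit Rela and the factors Cebpb and Cebpd, which bind promoters of acute phase genes, differed by 0.02, 0.07 and 0.03.

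The 250 bases before the RefSeq start (GRCm38.p6) were searched for an NF-kB motif, GGGANNNNCC on either strand. The windows of Nfkbia and Il6 are shown as those of an inhibitor and a cytokine of this pathway whose groups did not overlap and whose windows held matches. Both were chosen after their values were seen. Capitals mark the matches, and the windows run 5′ to 3′ on the gene's strand. The Nfkbia window is chr12:55492648-55492897 on the minus strand, and the Il6 window chr5:30012864-30013113 on the plus strand.
Nfkbia: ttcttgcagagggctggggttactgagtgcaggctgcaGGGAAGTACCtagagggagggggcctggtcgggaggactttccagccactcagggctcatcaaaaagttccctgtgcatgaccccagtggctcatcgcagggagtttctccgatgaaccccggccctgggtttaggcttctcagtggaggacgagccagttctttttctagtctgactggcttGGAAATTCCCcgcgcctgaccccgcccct
Il6: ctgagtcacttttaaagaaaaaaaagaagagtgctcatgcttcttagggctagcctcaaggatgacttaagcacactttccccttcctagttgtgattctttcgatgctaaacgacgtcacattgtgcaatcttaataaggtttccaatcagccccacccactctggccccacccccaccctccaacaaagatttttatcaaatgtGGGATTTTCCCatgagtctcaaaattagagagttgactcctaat
Nfkbia held 2 separate matches, which began at positions -212 and -29 from the start. Il6 held 2 overlapping matches, at -44 and -43. Of 34 windows found for 29 of the 37 genes, 15 held this motif, as did 17.6% of the 32851 windows of all genes. A STAT motif, TTCNNNGAA, lay in 6 of the 34 and in 7.02% of all windows, and a C/EBP motif, TTGCNNAA, in 6 of the 34 and in 9.56% of all. Itih4 held the STAT letters TTCCGAGAA at -51. These are matches of letters, and no binding was measured.

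Among the secreted acute phase proteins, 10 of 12 were measured. The mean was lower in ARSB-null liver for 9 of the 10 and higher for Crp, 0 passed the test, and the median log2 difference was -0.22, beside -0.02 over named genes. Hp encodes haptoglobin, which binds free haemoglobin. It measured 12.92, 13.04 and 13.07 in ARSB-null livers, against 13.30, 13.43 and 13.17 in control livers. The groups did not overlap (1.23-fold lower, log2 difference -0.29, SE 0.11, 95% interval of the fold 1.03 to 1.47, unadjusted p = 0.0308, adjusted p = 0.794, limma). Hpx, the haem carrier hemopexin, measured 13.84, 13.75 and 13.89 in ARSB-null livers and 14.02, 14.10 and 13.97 in control livers, again without overlap (log2 difference -0.20, adjusted p = 0.869, limma).

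Fgl1, a hepatocyte-secreted relative of fibrinogen, had the widest difference of the group and also a wide spread. It measured 11.20, 11.70 and 11.76 in ARSB-null livers, against 12.59, 12.29 and 11.73 in control livers. Control mouse 6 lay among the ARSB-null values (1.57-fold lower, log2 difference -0.65, SE 0.25, unadjusted p = 0.0351, adjusted p = 0.800, limma). Without that liver the log2 difference was -0.89, and without both mice numbered 4 it was -0.28. Fgl1 varied more within groups than 98.2% of named genes.

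Itih3 and Itih4 encode heavy chains of the inter-alpha-trypsin inhibitor family, plasma proteins that bind hyaluronan or are released in inflammation. Itih3 measured 12.45, 12.54 and 12.59 in ARSB-null livers, against 12.96, 12.90 and 12.61 in control livers. The groups were apart by the small gap between mice numbered 6 (log2 difference -0.30, SE 0.12, unadjusted p = 0.0479, adjusted p = 0.838, limma). Itih4 measured 13.10, 13.24 and 13.36 in ARSB-null livers and 13.53, 13.52 and 13.35 in control livers, and overlapped only through mice 6 (log2 difference -0.24, adjusted p = 0.876, limma).

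Apcs encodes serum amyloid P component, the pentraxin that responds most in mice. It measured 10.27, 10.54 and 10.10 in ARSB-null livers and 10.59, 10.99 and 10.38 in control livers, with overlap (log2 difference -0.35, 95% interval -0.80 to 0.09, unadjusted p = 0.104, adjusted p = 0.910, limma). With the mouse number as a block, its unadjusted limma p was 0.0124. Crp, the other short pentraxin, which responds weakly in mice, differed by 0.01, with an interval of -0.21 to 0.23. Serpina3n, an inhibitor of serine proteases, measured 12.84, 12.86 and 13.07 in ARSB-null livers and 13.35, 13.12 and 12.87 in control livers. These overlapped (log2 difference -0.19, adjusted p = 0.974, limma). Serpina3n belongs to a cluster of close paralogs, and whether its probes also read Serpina3k or Serpina3m was not tested. Lbp, which presents bacterial lipopolysaccharide to CD14, and Cp, the copper-carrying ferroxidase ceruloplasmin, differed by -0.04 and -0.07.

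The order of the livers recurred across these proteins. Control mouse 6 was the lowest control for 7 of the 10, and ARSB-null mouse 6 the highest and ARSB-null mouse 4 the lowest of their group for 7 each. For 8 acute phase genes outside the list (the serum amyloid A and orosomucoid genes and Lcn2), control mouse 6 was likewise the lowest control for 7, and ARSB-null mouse 6 the highest of its group for 5. Over all 19938 named genes, control mouse 6 was the lowest control for 6456, and ARSB-null mouse 6 the highest of its group for 5262 and ARSB-null mouse 4 the lowest for 7037. These genes are co-regulated and share the arrays, so the counts are a description of 6 livers.

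**Figure D3:**
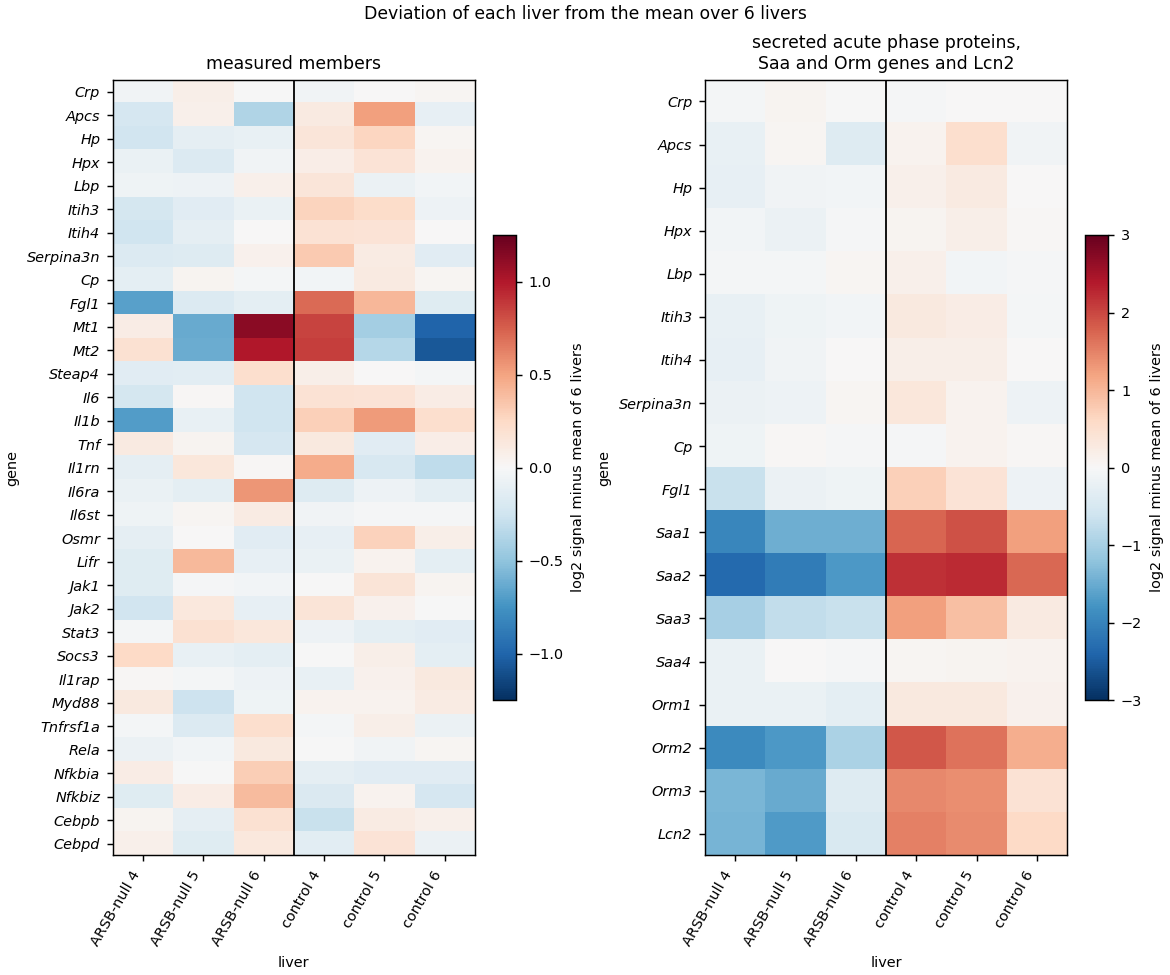
Deviation of each liver's log2 signal from the mean over all 6 livers (colour, red above and blue below the mean), with genes as rows and livers as columns, ARSB-null left of control. The left panel holds the 33 measured genes and the right panel, on a wider scale, the secreted acute phase proteins beside the Saa and Orm genes and Lcn2. Saa1, Saa2, Orm2, Orm3 and Lcn2 differ far more between the groups than any secreted protein of the list.

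The metallothioneins Mt1 and Mt2, small cysteine-rich proteins that bind zinc and copper, varied more between mice than any other measured gene of the list. Metals act on them through the factor MTF1 at metal response elements, and glucocorticoids and IL-6 also induce them. Mt1 measured 10.77, 10.05 and 11.81 in ARSB-null livers and 11.53, 10.26 and 9.68 in control livers. Mt2 measured 12.50, 11.70 and 13.31 in ARSB-null livers and 13.18, 11.95 and 11.25 in control livers. ARSB-null mouse 6 was highest and control mouse 6 lowest for both, and the 6 livers stood in the same order for the 2 genes. The lowest and highest liver were 4.37-fold apart for Mt1 and 4.17-fold for Mt2.

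The ranges of the genotypes overlapped for both genes. The log2 difference was 0.39 for Mt1 (95% interval -0.97 to 1.75, adjusted p = 0.993, limma) and 0.38 for Mt2 (95% interval -0.96 to 1.71, adjusted p = 0.993, limma). Without ARSB-null mouse 6 the differences were -0.08 and -0.03, and without control mouse 6 they were -0.02 and -0.06. Leaving out control mouse 4 raised them to 0.91 and 0.90, and leaving out ARSB-null mouse 5 to 0.80 and 0.78. Over the 16 alternative settings they ran from -0.08 to 0.97 for Mt1 and from -0.06 to 0.97 for Mt2. The spread within groups exceeded that of 99.97% of named genes for Mt1 and 99.96% for Mt2. Both intervals reach beyond 2-fold on the higher side. Steap4, a metalloreductase that inflammation induces, measured 10.27, 10.28 and 10.62 in ARSB-null livers and 10.48, 10.41 and 10.38 in control livers, a difference of -0.04.

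**Figure D4:**
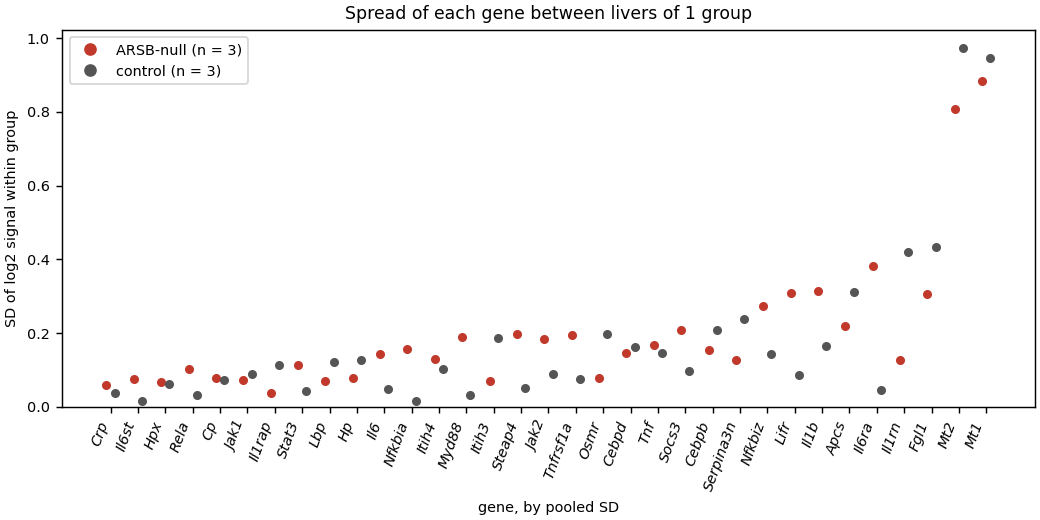
SD of the log2 signal between the 3 livers of a group (vertical axis) for each measured gene, ordered by pooled SD, with ARSB-null in red and control in grey. Mt1 and Mt2 lie far above the other genes in both groups, and Fgl1 is next by pooled SD.

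Mt1 and Mt2 are neighbours, with RefSeq starts 6471 bases apart on mouse chromosome 8, and their upstream windows are shown because the genes moved together across livers. Capitals mark the core of a metal response element, TGCACNC or TGCGCNC on either strand. The Mt1 window is chr8:94178839-94179088 and the Mt2 window chr8:94172368-94172617, both on the plus strand of GRCm38.p6.
Mt1: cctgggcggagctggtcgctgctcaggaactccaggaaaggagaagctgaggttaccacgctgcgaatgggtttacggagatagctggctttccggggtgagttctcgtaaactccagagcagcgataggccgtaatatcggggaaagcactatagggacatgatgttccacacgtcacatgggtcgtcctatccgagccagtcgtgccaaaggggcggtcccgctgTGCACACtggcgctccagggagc
Mt2: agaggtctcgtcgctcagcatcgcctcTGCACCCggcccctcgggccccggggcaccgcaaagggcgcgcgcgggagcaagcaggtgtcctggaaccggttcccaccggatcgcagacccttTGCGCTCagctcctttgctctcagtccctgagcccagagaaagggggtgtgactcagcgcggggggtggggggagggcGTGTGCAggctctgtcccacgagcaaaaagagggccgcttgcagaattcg
Mt1 held 1 match, at -23, and Mt2 held 3, at -223, -128 and -50. Only these 250 bases were searched, so elements outside them are not counted. Whether the RefSeq start is the one used in liver was not tested. The core lay in 5 of the 34 windows of the list and in 21.4% of all windows. Whether transcript of one gene also binds the other's probes was not tested, since probe sequences were not used here.

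Other genes of the same pathways gave the setting of these values. Of 17 measured genes of the IL-6 family and JAK-STAT signalling, 0 passed the test and the median log2 difference was -0.07. The lowest p belonged to Socs2, a growth hormone induced inhibitor of STAT5 signalling, which measured 10.98, 10.83 and 10.39 in ARSB-null livers and 9.73, 9.99 and 9.97 in control livers (log2 difference 0.84, unadjusted p = 0.00187, adjusted p = 0.379, limma). Cish, another STAT5 target, differed by 0.55, also without overlap. Of 29 measured genes of IL-1, TNF and Toll-like receptor signalling, 0 passed the test and the median was -0.01. The lowest p values were those of the alarmin Il33 (-0.36), the lipopolysaccharide receptor Tlr4 (0.42) and the TNF receptor Tnfrsf1b (0.40), with adjusted p of 0.749, 0.762 and 0.826 (limma).

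Among 15 measured NF-kB-responsive genes, 1 was called, the endothelial adhesion molecule Vcam1, which rose in ARSB-null liver (9.51, 9.44 and 9.57, against 7.90, 8.27 and 7.94 in control livers, log2 difference 1.47, adjusted p = 0.0487, limma). The chemokines Ccl5 and Ccl2 differed by 0.46 and 0.31, without passing the test, and the median over the 15 was 0.04. The serum amyloid A and orosomucoid genes, several of which the same cytokines induce, lay on the other side of zero. All 7 were lower without overlap, beside 8.32% of named genes. Saa2 and Saa1 fell past the threshold (log2 differences -4.10 and -3.25, adjusted p = 0.00173 and 0.0103, limma), and the median was -2.18. The sizes were uneven, from -4.10 for Saa2 to -0.46 for Orm1 and -0.15 for Saa4. With the mouse number as a block, the adjusted p was 0.195 for Vcam1, 0.105 for Saa1 and 0.0618 for Saa2 (limma), and leaving out any 1 mouse gave 0.051 to 0.376 for Vcam1. Saa1 passed on leaving out control mouse 6 (0.0118) but not on leaving out any other mouse (0.051 to 0.0831). Saa2 passed in each fit without 1 mouse (0.0075 to 0.0397). By one-way analysis of variance none of these genes passed, with an adjusted p of 0.286 for Vcam1, 0.28 for Saa1 and 0.18 for Saa2. Without both mice numbered 4 none passed either (0.278, 0.23 and 0.115, limma). Of 18 other hepatic acute phase genes, 0 passed the test. Lcn2, the siderophore-binding lipocalin 2, was lowest at -2.37 (adjusted p = 0.232, limma), followed in p by the complement protein C9 at -0.49, with a median of -0.03 over the 18. Whether any of these lists differs from the others was not tested.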

How the data were processed

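Liver RNA from 3 ARSB-null and 3 control mice was hybridized to 1 array per mouse. The authors quantile-normalized the signals and summarized 1 value per probe set (RMA and Partek appear in the submitters' processing notes, versions not given in the sources used here). The deposited values are log2 signals with no detection calls, and this normalization hides a shift common to most genes. The number of arrays limits the precision. Gene symbols came from GEO's annotation of the platform (21789 with 1 symbol, 1621 with several, 12146 unnamed); the annotation fits a first-generation gene array, whereas the methods of the paper name a second-generation one.

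Groups were compared with limma (version 3.58.1, R 4.3.3; lmFit, eBayes, two-sided, Benjamini-Hochberg over all 35556 probe sets, adjusted p under 0.05). The script was tested on simulated data. Members and lists were chosen with earlier results of these data known. Values per array were given for members with an unadjusted p under 0.05, filled up by p to 12. They were also given for a fixed set of signalling, metallothionein and Serpina3 genes. Up to 4 genes of lowest p were named per other list. Lifr, Il1rn, Steap4 and Jak1 values, the motifs and the windows were chosen after values were seen. Deviations from the group means correlated between same-numbered mice (0.396, 0.159 and 0.193 across probe sets for mice 4, 5 and 6, all over 0.1). Between mice of unlike number the correlations ran from -0.325 to 0.22, the highest for ARSB-null mouse 6 with control mouse 5. Only the pair numbered 4 exceeded every pair of unlike number, so a pairing by number is not established. The number was also fitted as a block, given where it changed a count. What mice of 1 number had in common is not given in the sources used here. Other alternatives are in the closing section.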

Additional observations from a re-analysis of the deposited data

How the results depend on the processing

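Under the 16 alternatives, 0 members passed the adjusted threshold in either direction, and all 525 single values kept their side of it. This held with the replicate block (0 higher, 0 lower) and with the block on probe sets with 1 symbol, chosen after seeing the data (0 and 0), where Il1b came to an adjusted p of 0.0601 (limma). The block gave 0 members higher and 4 lower at an unadjusted p under 0.05, against 1 and 5. It also lowered the calls over all probe sets and ended those of Vcam1, Saa1 and Saa2.

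The unadjusted counts depended on the setting and the cause was not tested. Members higher, 1 in the fit reported, were 2 by one-way analysis of variance, 0 with array medians subtracted, 2 with a trend and robust prior, 2 with array weights and 2 without both mice numbered 4. Leaving out 1 mouse gave 0 to 1. It gave 0 without ARSB-null mouse 6 and without each control. Members lower, 5 in the fit reported, were 2 with array weights and 1 without both mice numbered 4. With a trend and robust prior, Hpx and Itih4 were under 0.05 beside those 5 (unadjusted p = 0.0125 and 0.0284, limma). Leaving out 1 mouse gave 1 to 5, with 1 without ARSB-null mouse 4, 2 without ARSB-null mouse 5, 3 without ARSB-null mouse 6, and 1 without control mouse 4 or control mouse 5. The median difference, -0.038, was -0.07 with medians subtracted and -0.01 with array weights, and leaving out 1 mouse gave -0.077 (without ARSB-null mouse 6) to -0.03. Over all probe sets the calls were 2 higher and 5 lower, 27 and 33 with only probe sets of 1 symbol, 14 and 14 with array weights, 1 and 1 by analysis of variance, and 1 and 3 with the block.

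Of uncalled differences, 5 changed sign with medians subtracted (none over 0.03 in size), 4 with array weights and up to 7 on leaving out 1 mouse, Mt1 and Mt2 among them. The 3 arrays a group limit the precision, and Il6 lies near the lowest signals of the arrays.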

Other observations

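Of 13 genes that the liver lowers in the acute phase, 0 passed the test (adjusted p of 0.943 or more, limma), the mean of ARSB-null liver was the higher one for 11 and the lower one for 2, and the median log2 difference was 0.06. Hepatocyte markers, which share Alb, Apoa1, Ttr and Cps1 with them, had a higher mean for 10 of 12, with a median of 0.08. Over all named genes the mean was higher for 9017 of 19938. Of the 13, the lowest p belonged to Cyp7a1, the rate-limiting enzyme of bile acid synthesis, at -0.26, and to Fetub, at 0.18. Ahsg, which encodes fetuin A, differed by 0.13 without overlap between the groups.

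Of 13 genes that respond to glucocorticoids or metals, Mt1 and Mt2 apart, 0 passed the test and the median was -0.01. Hmox1, the haem-degrading enzyme, measured 8.84, 8.91 and 8.98 in ARSB-null livers and 8.51, 8.68 and 8.56 in control livers (log2 difference 0.33, adjusted p = 0.670, limma). The zinc sensor Mtf1 differed by -0.24, also without overlap. The zinc exporter Slc30a1, another target of MTF1, measured 9.15, 9.26 and 9.33 in ARSB-null livers and 9.28, 9.32 and 9.20 in control livers. It was chosen for mention after its values were seen, and its range was the narrowest of the 13 (1.13-fold between lowest and highest liver). The widest ranges of the 13 were those of Per1 (3.16-fold) and Dusp1 (2.25-fold). What the spread of Mt1 and Mt2 follows was not tested.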
